A study of Homo sapiens with 13 samples.

Results

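The comparison described here is that of SW480 cells kept for 6 h with DFO against SW480 cells kept for 6 h with DMSO, labelled as the control. Its members were taken by the sample titles and make up 8 of the 13 arrays of the study, 4 of DFO and 4 of DMSO. SW480 is an established human colon cancer line, and DFO (deferoxamine) is a clinically used iron chelator. The labels give 0.1% DMSO for the DMSO arrays and state no DMSO content for the DFO arrays. A difference in DMSO between the groups thus cannot be told apart from DFO. For DFO the labels give 100 mM. A dose in that unit is improbable for cells in culture, and nothing in the labels settles whether another unit was meant. The remaining arrays were of Deferasirox (3 arrays, labelled 50 mM), another clinical chelator, and of OICR623 (2 arrays, labelled 10 mM). RNA was hybridised to Affymetrix Human Gene 1.0 ST arrays, and the series text calls the replicates independent experiments.

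Iron is the cofactor of several enzyme families whose loss of activity reaches the transcriptome. The prolyl hydroxylases EGLN1 to EGLN3 use iron, oxygen and 2-oxoglutarate to mark the alpha subunits of hypoxia-inducible factor (HIF) for degradation by way of VHL, and without iron HIF accumulates and binds a core motif, ACGTG or GCGTG, near its target genes. Ribonucleotide reductase, which makes the precursors of DNA, holds an iron centre in its RRM2 subunit, and chelators are known to slow DNA synthesis. Replication-dependent histone genes are transcribed in S phase, and their messages, which end in a stem-loop bound by SLBP, are degraded when DNA synthesis stops. Iron stores themselves are read by the iron regulatory proteins, which stabilise the transferrin receptor message TFRC when iron is low.

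Of the 18 measured intestinal epithelial markers, KRT8 and KRT18, the simple-epithelium keratins, had mean log2 signals above those of 99.3% and 99.7% of genes. The adhesion gene EPCAM stood at the 82.0th percentile, whereas VIL1, the gene of villin, stood at the 42.7th and CDH1, the gene of E-cadherin, at the 20.7th. ELF3, another of the 18, stood at the 32.9th. These genes were picked from the list, so their ranks do not describe all 18. These percentiles rank signals, which depend on the probes as well as on the RNA. The fibroblast markers lay between the 1.47th (LUM) and the 61.8th percentile (ACTA2), the endothelial markers between the 6.26th (EMCN) and the 51.0th (CLDN5), and the leukocyte markers between the 1.97th (PTPRC) and the 75.9th (CD68). Between DFO and DMSO limma called 0 of the 12 fibroblast, 10 endothelial and 11 leukocyte markers, and 2, 0 and 0 of them had an unadjusted p under 0.05. Of the epithelial markers ELF3 rose by 0.30 and CDX2 fell by 0.49. Each is 5.56% of the 18, against 1.37% of all genes called higher and 1.99% called lower. ELF3 was not called whichever pair was left out, and CDX2 was not called without pair 2, 3 or 4.

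Both arrays numbered 1 stood apart from the rest. The median log2 signal was 7.17 in DFO 1 and 7.19 in DMSO 1, against 6.52 to 6.67 in the other DFO arrays and 6.55 to 6.68 in the other DMSO arrays. DFO 1 and DMSO 1 also held exactly equal values for 8530 of 32321 transcript clusters (26.4%). Any other 2 arrays of a similar median shared 5 to 107 values, and arrays of different median levels shared 0. Among the 18404 genes tested, 5535 (30.1%) were tied in the first pair, and 3, 4 and 34 in pairs 2, 3 and 4. The standard deviation of the DFO minus DMSO difference over genes was 0.14 in the first pair and 0.19, 0.20 and 0.21 in the others. The source of the shared values was not tested. DFO 1 and DMSO 1 are thus not known to be separate measurements for all genes, and the main counts are given with and without this pair. A tied gene has a difference of 0 in the first pair, which draws its mean change towards 0.

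Same-numbered DFO and DMSO arrays were compared as 4 pairs. Of the 18404 genes 619 were called by limma (3.36%; adjusted p under 0.05), 253 higher with DFO (1.37%) and 366 lower (1.99%). All 619 differed in the same direction in all 4 pairs, and so 0 of them were tied in the first pair. Most changes were small. The median size of a called change was 0.35 on the log2 scale, and 20 of the called rises and 37 of the called falls exceeded 1. The median change of all genes was 0.00. Without the first pair 453 genes were called (2.46%), 211 higher (1.15%) and 242 lower (1.31%), and 367 of the 619 were among them. In that fit DDIT4 stood at 3.19, EGLN3 at 2.14, H1-5 at -3.29 and H3C12 at -2.82, and of the 108 called genes named by rule 20 were not called. Without pair 2, 3 or 4 the count was 229, 172 or 210.

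A fit that ignored the pairs called 31 genes (0.168%), and all 31 belonged to the 619. The 11 that were higher in that fit were DDIT4, ARRDC3, ADM, EGLN3, ERRFI1, CHST15, BHLHE40, MOB3A, NDRG1, HUNK and ANGPTL4. The other rises named below were not called in that fit. The 20 that were lower were all histone genes, 18 of core histones and 2 of linker histones. The signals of DFO and DMSO arrays did not overlap for 105 genes (0.571%), 60 higher and 45 lower, of which 91 were called.

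**Figure D1:**
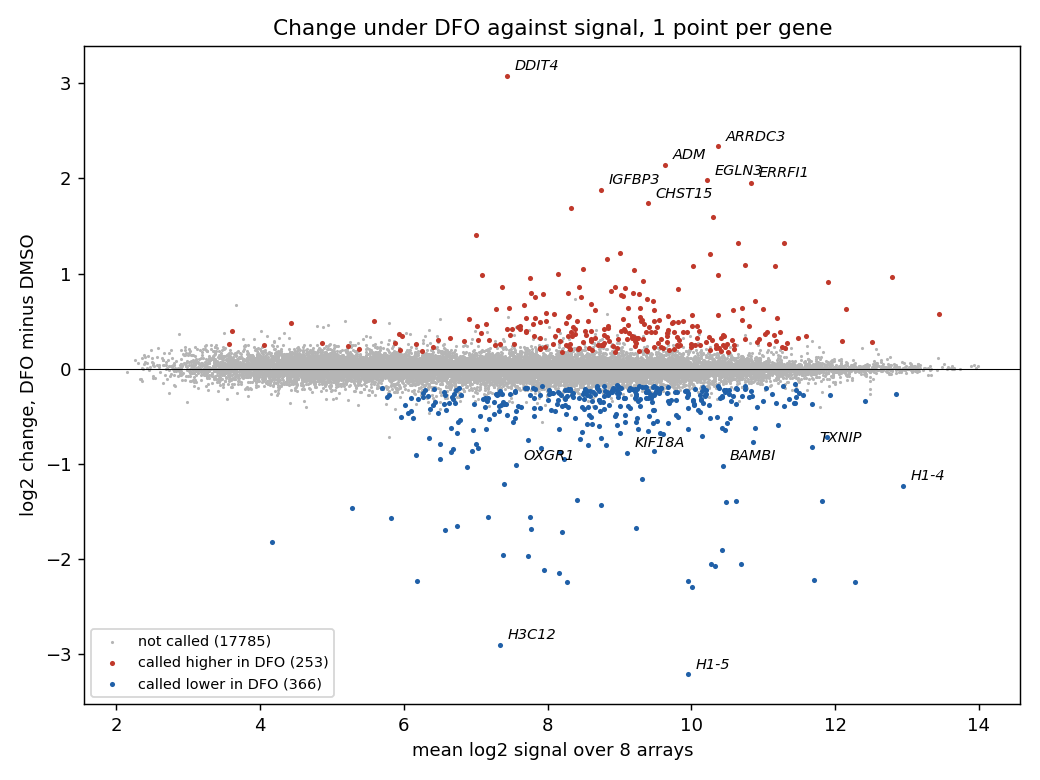
Log2 change (DFO minus DMSO, y axis) against the mean log2 signal over 8 arrays (x axis), with 1 point per gene. Red points are the 253 genes called higher with DFO, blue points the 366 called lower and grey points the genes not called. DDIT4, at 3.08, is the highest point and H1-5, at -3.21, the lowest.

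The promoter sequences of 5 called genes are shown first. They were chosen because they hold motifs of the pathways described above, and so are not a sample of the genes that changed. They are the 250 bases before the RefSeq start (assembly GRCh38.p14), read in the direction of the gene. Among the genes called higher, 190 of 253 had an entry in the RefSeq promoter table, and 297 of 366 among those called lower. In DDIT4 and ADM, capitals mark the HIF core, searched as ACGTG or GCGTG on both strands.
DDIT4 (chr10:72273674-72273923, plus strand): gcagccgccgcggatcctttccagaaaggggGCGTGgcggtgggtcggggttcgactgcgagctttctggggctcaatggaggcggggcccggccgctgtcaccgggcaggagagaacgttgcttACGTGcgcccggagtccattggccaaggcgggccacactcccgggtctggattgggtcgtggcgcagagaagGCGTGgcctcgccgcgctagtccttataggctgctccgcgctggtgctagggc
ADM (chr11:10304823-10305072, plus strand): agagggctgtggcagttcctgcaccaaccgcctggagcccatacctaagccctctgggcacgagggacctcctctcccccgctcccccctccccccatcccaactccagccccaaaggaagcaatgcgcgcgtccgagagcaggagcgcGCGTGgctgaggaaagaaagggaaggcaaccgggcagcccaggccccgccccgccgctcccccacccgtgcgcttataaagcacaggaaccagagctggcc

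DDIT4 held 3 HIF cores in this window, which ended 215, 121 and 49 bases before the start, and ADM held 1, ending 97 bases before it. A HIF core was found in 51.1% of the 14230 tested genes with a promoter entry and in 55.8% of those called higher. Among called members of the HIF and glycolysis lists 18 of 21 promoters held one (85.7%), and among the members not called 36 of 54 did (66.7%). The promoters of EGLN3 and ARRDC3, which rose among the most, held 0 such cores in this window. The motif was thus common among all genes, and a match describes letters and not binding.

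In the histone genes H1-5 and H3C2, capitals mark CCAAT or its reverse complement ATTGG, the motif bound by the factor NF-Y, and in the mitotic kinase gene PLK1 they mark the cell cycle homology region (CHR), searched as TTTGAA or TTCGAA on both strands.
H1-5 (chr6:27867589-27867838, minus strand): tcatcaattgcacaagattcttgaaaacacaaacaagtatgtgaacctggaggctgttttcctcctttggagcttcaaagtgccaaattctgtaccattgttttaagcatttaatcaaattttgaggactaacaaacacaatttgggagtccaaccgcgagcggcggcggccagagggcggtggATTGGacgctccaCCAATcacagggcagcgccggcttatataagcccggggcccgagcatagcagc
H3C2 (chr6:26032100-26032349, minus strand): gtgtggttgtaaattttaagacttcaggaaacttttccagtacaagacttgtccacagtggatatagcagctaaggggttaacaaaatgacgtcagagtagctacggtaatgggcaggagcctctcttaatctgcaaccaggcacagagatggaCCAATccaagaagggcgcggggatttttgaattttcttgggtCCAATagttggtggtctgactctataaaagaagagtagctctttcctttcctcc
PLK1 (chr16:23678639-23678888, plus strand): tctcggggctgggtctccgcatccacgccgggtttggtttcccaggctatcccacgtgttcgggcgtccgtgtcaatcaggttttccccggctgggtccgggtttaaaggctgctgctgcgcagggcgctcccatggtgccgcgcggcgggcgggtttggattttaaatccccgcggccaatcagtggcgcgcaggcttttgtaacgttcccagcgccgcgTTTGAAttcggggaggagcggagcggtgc

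H1-5 and H3C2 each held 2 CCAAT motifs, and PLK1 held 1 CHR, which ended 24 bases before the start. CCAAT was found in 34 of 40 promoters of core histones that fell (85.0%) and in 24 of 33 promoters of G2/M genes that fell (72.7%), against 34.4% of tested genes. A CHR was found in 15 of those 33 G2/M promoters (45.5%), against 11.8% of tested genes. It was also found in 15 of the 40 core histone promoters (37.5%), and so was not particular to G2/M genes. A HIF core was found in 22 of the 33 G2/M promoters (66.7%), against 55.8% of genes called higher, and in 6 of the 40 histone promoters. Capitals mark only the motif named for each gene: PLK1 also held an unmarked ACGTG and H3C2 an unmarked TTTGAA. G2/M and histone members not called were not counted. TATAAA was found in 26 of the 40 histone promoters (65.0%), against 8.6%.

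The genes of HIF itself moved little, apart from 2 of its hydroxylases. Of 9 measured subunits and hydroxylases, EGLN3 and EGLN1 rose (22.2%, against 1.37% of all genes) and 0 fell. The median change of the 9 was 0.05. EGLN3 had log2 signals of 11.38, 11.29, 11.22 and 10.97 in DFO arrays 1 to 4, against 9.88, 9.05, 9.05 and 8.96 in DMSO arrays 1 to 4. Each DFO array lay above every DMSO array, and the difference was 1.98 (SE 0.12, 95% interval 1.68 to 2.27), or 3.94-fold (adjusted p = 0.0013). EGLN1, the main oxygen sensor of the family, had log2 signals of 10.52, 9.82, 9.78 and 9.74 with DFO and 10.31, 9.49, 9.40 and 9.32 with DMSO. These ranges overlapped, and the rise of 0.33 (SE 0.04, adjusted p = 0.017) was seen within each pair. The EGLN1 call was lost without pair 2, 3 or 4, with an adjusted p of up to 0.099. HIF1A at -0.07, EPAS1 at 0.10, ARNT at -0.03, VHL at 0.05 and HIF1AN at -0.03 were not called.

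Secreted products of HIF targets included ADM, VEGFA and ANGPTL4. Of 16 measured members 5 rose (31.2%, against 1.37% of all genes) and 0 fell, with a median of 0.14. ADM, the gene of the vasodilator peptide adrenomedullin, had log2 signals of 10.93, 10.64, 10.59 and 10.69 with DFO, against 9.29, 8.15, 8.33 and 8.49 with DMSO. The rise was 2.15 (SE 0.13), or 4.43-fold (adjusted p = 0.0012). VEGFA, the main angiogenic growth factor, had 9.58, 9.0, 9.04 and 9.06 with DFO and 8.30, 7.37, 7.38 and 6.88 with DMSO, a rise of 1.69 (SE 0.13, adjusted p = 0.0029). The signals of both genes did not overlap between the groups. ANGPTL4, an inhibitor of lipoprotein lipase, had 7.63, 7.59, 7.63 and 7.96 with DFO, against 6.64, 6.22, 6.33 and 5.99 with DMSO, a rise of 1.40 (SE 0.15, adjusted p = 0.0078; 0.057 without the third pair). STC2, a secreted glycoprotein that acts on the IGF axis, rose by 0.77 (SE 0.07). The number of members called higher was 5 without pair 1, 2 or 4 and 4 without pair 3.

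Of the 41 cellular HIF targets 17 rose (41.5%, against 1.37% of all genes), 1 fell and 23 were not called, and the median change was 0.25. DDIT4, which restrains mTOR complex 1 under stress, had log2 signals of 9.24, 8.84, 8.84 and 9.0 with DFO, against 6.51, 5.69, 5.82 and 5.60 with DMSO. The rise of 3.08 (SE 0.10, 95% interval 2.82 to 3.33), or 8.44-fold, was the largest among all called genes (adjusted p = 1.06e-04). NDRG1, a gene induced by iron depletion in many cell types, had 12.11, 11.88, 11.90 and 11.91 with DFO and 11.13, 10.55, 10.42 and 10.42 with DMSO, a rise of 1.32 (SE 0.09, adjusted p = 0.0019). NDRG2, NDRG3 and NDRG4, its paralogs, stood at 0.10, 0.02 and 0.15 and were not called. NDRG2 and NDRG4 were tied in the first pair. Without that pair these 2 stood at 0.13 and 0.20 and were not called either. KDM3A, a histone H3 lysine 9 demethylase, had 10.14, 9.37, 9.31 and 9.67 with DFO and 9.21, 8.19, 8.06 and 8.15 with DMSO, a rise of 1.22 (SE 0.09, adjusted p = 0.0025). The DFO signals of DDIT4, NDRG1 and KDM3A lay above all DMSO signals of the same gene.

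BHLHE40, a transcriptional repressor of the clock, rose by 1.59 (SE 0.05), and its paralog BHLHE41 fell by 0.27 (SE 0.05, adjusted p = 0.041). The BHLHE41 call was lost whichever pair was left out. BNIP3L, a mitophagy receptor, rose by 1.07 (SE 0.14), whereas its paralog BNIP3 stood at -0.06 (adjusted p = 0.46). The collagen-modifying genes LOXL2, a lysyl oxidase, and P4HA1, a prolyl 4-hydroxylase subunit, rose by 1.08 and 0.80. They were the 2 called among 19 measured genes of that class (10.5%, against 1.37% of all genes called higher). INSIG2, which holds back sterol synthesis, rose by 0.78. The number of cellular targets called higher was 18 without the first pair and 9, 7 and 10 without pairs 2, 3 and 4. BNIP3L was not called without pair 2, 3 or 4, LOXL2 without the third, and INSIG2 without pair 3 or 4.

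**Figure D2:**
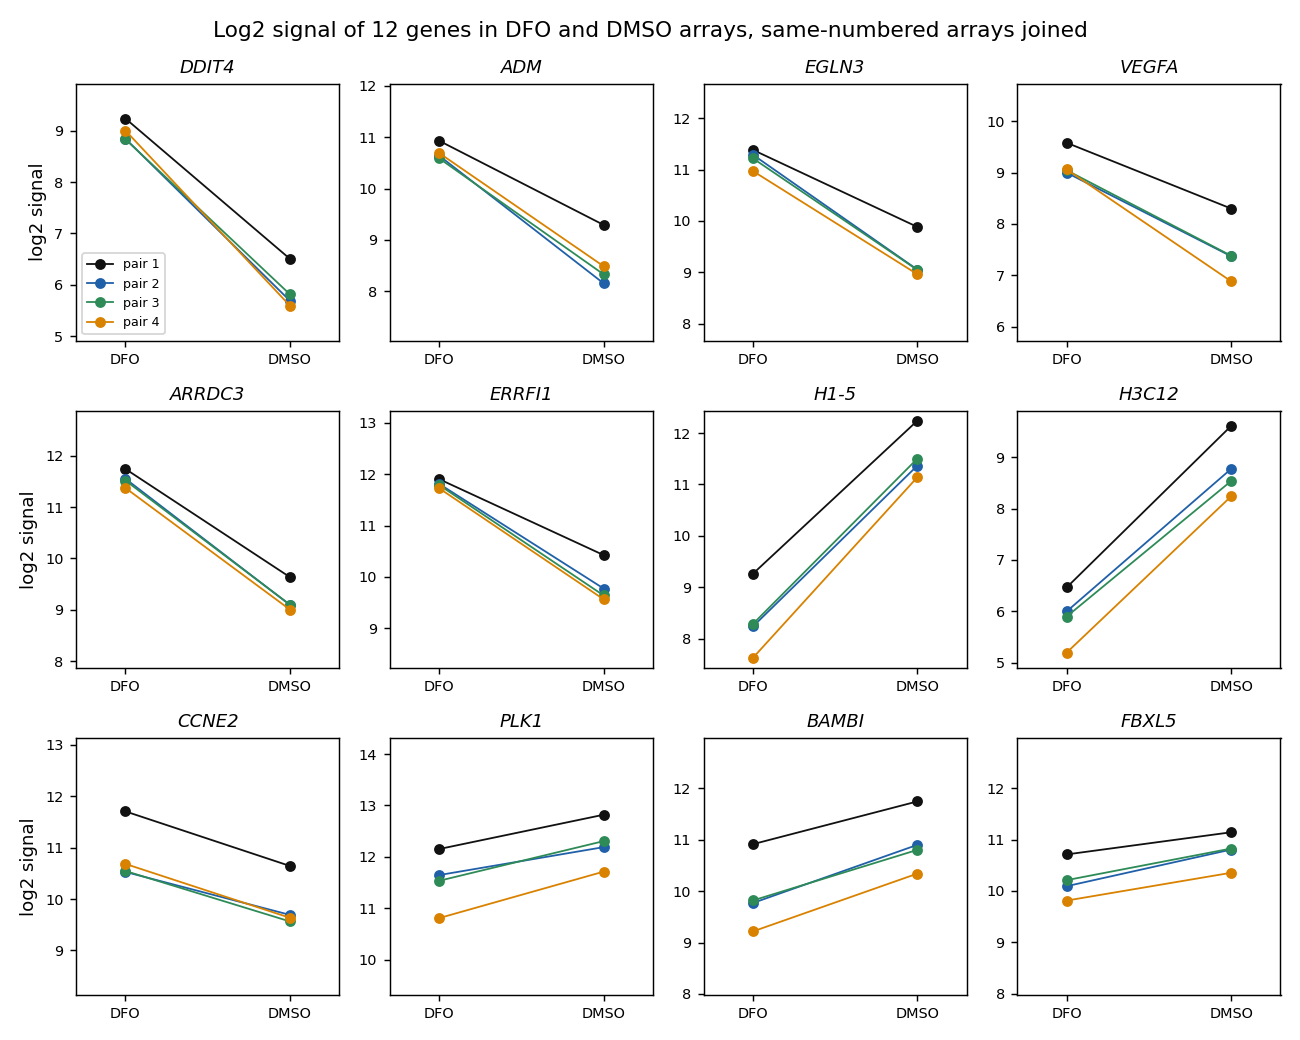
Log2 signals (y axis) of 12 genes in the DFO arrays (left) and the DMSO arrays (right), with same-numbered arrays joined by a line. In all 12 panels the 4 lines slope the same way, and pair 1 (black) lies highest in all of the DMSO columns. The DFO and DMSO points do not overlap for DDIT4, ADM, EGLN3, VEGFA, ARRDC3, ERRFI1, H1-5 and H3C12 and overlap for CCNE2, PLK1, BAMBI and FBXL5.

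Some genes of glucose uptake and of the control of glycolysis rose with DFO. Of 27 measured, 6 rose (22.2%, against 1.37% of all genes) and 1 fell, with a median of 0.10. PFKFB3, which makes the allosteric activator of phosphofructokinase, had 9.89, 9.68, 9.50 and 9.80 with DFO, against 9.09, 8.52, 8.70 and 8.41 with DMSO, a rise of 1.04 (SE 0.11, adjusted p = 0.0069) with no overlap. The glucose transporter gene SLC2A3 had 13.70, 13.22, 13.23 and 12.94 with DFO and 13.23, 12.26, 11.91 and 11.81 with DMSO, where DMSO 1 lay among the DFO arrays. Its rise of 0.97 (SE 0.13, adjusted p = 0.019) was 0.46 in the first pair and 0.96 to 1.31 in the others. ENO2, SLC2A1 and PDK1, a neuronal-type enolase, another glucose transporter and an inhibitor of pyruvate dehydrogenase, rose by 0.71, 0.58 and 0.56. PDK4, of the same kinase family as PDK1, fell by 0.27 (adjusted p = 0.045), and LDHA, which makes lactate, stood at 0.11 (adjusted p = 0.17). The number called higher was 4 without pair 2, 3 or 4, where SLC2A3 and SLC2A1 were not called (adjusted p up to 0.11 for SLC2A3). PDK4 was not called without pair 1 (adjusted p = 0.13), 3 or 4.

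Several of the largest rises fell outside the HIF and glycolysis lists. ARRDC3, an alpha-arrestin that acts in receptor trafficking, had 11.74, 11.55, 11.52 and 11.37 with DFO, against 9.64, 9.10, 9.10 and 9.0 with DMSO. It rose by 2.34 (SE 0.06, 95% interval 2.18 to 2.49), or 5.05-fold (adjusted p = 4.91e-05). Its relative TXNIP, an inhibitor of thioredoxin and of glucose uptake, had 12.05, 11.27, 11.05 and 10.69 with DFO and 12.65, 12.04, 11.88 and 11.78 with DMSO. TXNIP fell by 0.82 (SE 0.08, adjusted p = 0.0057), and the fall held in each pair although the groups overlapped. ARRDC4 fell by 0.48, a call lost whichever pair was left out, while ARRDC1 at -0.08 and ARRDC2 at 0.06 were not called. The 5 measured members of the family thus gave 1 rise (20%, against 1.37% of all genes) and 2 falls (40%, against 1.99%).

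Ligands and feedback inhibitors of the EGF receptor were among the rises. Of 23 measured receptors, ligands and feedback genes 6 rose (26.1%, against 1.37% of all genes) and 0 fell, with a median of 0.06. ERRFI1, whose product binds and inhibits the receptor, had 11.90, 11.81, 11.79 and 11.73 with DFO, against 10.43, 9.78, 9.64 and 9.56 with DMSO, a rise of 1.96 (SE 0.12), or 3.88-fold (adjusted p = 0.0012). TGFA, a ligand of the receptor, had 9.65, 8.83, 8.87 and 8.72 with DFO and 8.88, 7.76, 7.69 and 7.57 with DMSO. It rose by 1.04 (SE 0.07, adjusted p = 0.0020), and only DMSO 1 reached the DFO range. SPRY1 and DUSP5, inhibitors of the downstream kinase cascade, rose by 0.48 and 0.38. The count of 6 stayed at 6 without the first pair and was 3, 2 and 4 without pairs 2, 3 and 4.

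Immediate early genes, which respond first to many stimuli, gave 10 rises (29.4%, against 1.37% of all genes) and 0 falls among 34 measured, with a median of 0.11. The AP-1 subunit gene FOSL2 had 11.42, 11.32, 11.30 and 11.12 with DFO, against 10.88, 10.05, 10.01 and 9.85 with DMSO. The groups did not overlap, and the rise of 1.09 (SE 0.13, adjusted p = 0.012) was 0.54 in the first pair and 1.27 to 1.29 in the others. DUSP1, a phosphatase of MAP kinases, rose by 0.78, SGK1, a kinase induced by glucocorticoids and stress, by 0.62, and KLF10 by 0.51. The number called was 7, 6, 5 and 5 without pairs 1 to 4, and FOSL2 lost its call without pair 2, 3 or 4 (adjusted p up to 0.083).

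IGFBP3, which binds insulin-like growth factors, had 9.98, 9.51, 9.64 and 9.61 with DFO and 8.78, 7.81, 7.76 and 6.86 with DMSO. It rose by 1.88 (SE 0.23, adjusted p = 0.012), with 1.19 in the first pair and 2.75 in the fourth, and was not called without pair 2 or 3 (adjusted p up to 0.085). CHST15, a sulfotransferase of chondroitin sulfate, had 10.26, 10.36, 10.31 and 10.14 with DFO, against 8.90, 8.48, 8.41 and 8.32 with DMSO, a rise of 1.74 (SE 0.10, adjusted p = 8.06e-04). The DFO signals of both genes lay above all DMSO signals. MOB3A, LBH and HUNK, a protein kinase gene, rose by 1.32, 1.20 and 1.16. APLN, the gene of the vascular peptide apelin, rose by 0.99, and MTUS1 by 0.98. LBH was not called without the fourth pair.

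Messages of the iron system itself gave few calls. Of 32 measured genes of iron uptake, storage, export and regulation 0 rose and 1 fell (3.12%, close to the 1.99% of all genes). By limma 9 of the 32 had an unadjusted p under 0.05, against 3427 of all 18404 genes. With the array level as block over all 13 arrays 2 rose and 2 fell. FBXL5, the iron-sensing subunit that targets iron regulatory protein 2 for degradation, had 10.71, 10.09, 10.21 and 9.81 with DFO, against 11.14, 10.80, 10.82 and 10.35 with DMSO. It fell by 0.58 (SE 0.05, 95% interval -0.70 to -0.45, adjusted p = 0.0046), within each pair though not across all arrays. TFRC had 12.59, 11.63, 11.63 and 11.70 with DFO and 12.41, 11.36, 11.27 and 11.61 with DMSO. All 4 pairs were higher, by 0.10 to 0.36, but the difference of 0.22 (95% interval 0.10 to 0.34) was not called (adjusted p = 0.076). The iron importer gene SLC11A2 at 0.06, the ferritin light chain gene FTL at -0.09 and the heme oxygenase gene HMOX1 at 0.03 were not called. FTH1 was not analysed here.

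Apart from the hydroxylases named above, the lists of enzymes that need iron or make its cofactors gave 0 to 2 calls each. Of 38 measured JmjC, TET and ALKBH dioxygenases 2 rose (5.26%, against 1.37% of all genes) and 0 fell. KDM3A rose by 1.22 and KDM7A by 0.53, and the list median was -0.03. KDM7A was not called without pair 3. Among 36 genes of iron-sulphur cluster and heme synthesis 1 rose (2.78%, against 1.37% of all genes) and 0 fell. It was ALAS1, the first enzyme of heme synthesis, at 0.30, and the ALAS1 call was lost without pair 2, 3 or 4. Of 50 measured genes of the respiratory chain and the tricarboxylic acid cycle limma called 0, and 2 had an unadjusted p under 0.05. Of 31 genes of ribonucleotide reductase and nucleotide supply 0 were called and 4 had an unadjusted p under 0.05, against 3427 of all 18404 genes. RRM2 stood at 0.18 (SE 0.04, adjusted p = 0.059) and RRM1 at 0.07 (adjusted p = 0.34).

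Histone genes showed the largest falls. Of 50 measured replication-dependent core histone genes 45 fell (90.0%, against 1.99% of all genes) and 0 rose, and their median change was -1.42, against 0.00 over all genes. Without pairs 1 to 4 in turn, 44, 43, 42 and 43 fell. Core histone genes of a class are near-identical copies, so a probe set can read several of them and the members are not separate measurements. The falls ran through all 4 classes, with 12 of 14 H2A genes, 14 of 16 H2B genes, 8 of 8 H3 genes and 11 of 12 H4 genes. The class medians were -1.60 for H2A, -1.42 for H2B, -2.10 for H3 and -1.10 for H4.

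H3C12 had log2 signals of 6.47, 6.00, 5.90 and 5.20 with DFO, against 9.61, 8.77, 8.54 and 8.24 with DMSO. The DFO signals lay below all DMSO signals, a fall of 2.90 (SE 0.09, 95% interval -3.11 to -2.69; adjusted p = 8.13e-05). H2AC15, H2BC14, H2AC20, H2AC8, H3C11 and H3C7 were called lower as well, at -2.29, -2.25, -2.23, -2.23, -2.22 and -2.15. The 5 core histones not called were H2AC1 at -0.22, H2AC13 at -0.11, H2BC1 at -0.19, H2BC12 at -0.20 and H4C7 at 0.07. H2AC1 and H4C7 were tied in the first pair. In pairs 2 to 4 H2AC1 differed by -0.12, -0.41 and -0.37, and H4C7 by 0.09, 0.07 and 0.12. The H2AC13 signal stood at the 0.288th percentile, where a fall could hardly be seen. In a test of all transcript clusters, one that carried both H3C10 and H2AC13 was called lower, at -2.44. Another, with H2BC12, H2BC12L, H2BC17 and H2BC5, was called lower at -1.01. Such clusters cannot tell their genes apart, so H2AC13 and H2BC12 are not known to be spared. H2AC1 and H2BC1 are known as testis histones.

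Linker histones, which bind between nucleosomes, split by member. Of 9 measured 3 fell (33.3%, against 1.99% of all genes) and 0 rose. H1-5 had 9.26, 8.23, 8.28 and 7.62 with DFO, against 12.24, 11.37, 11.50 and 11.14 with DMSO. The fall of 3.21 (SE 0.09, 95% interval -3.42 to -3.00) left 0.108 of the DMSO signal and was the largest fall among called genes (adjusted p = 4.91e-05). H1-4 had 12.90, 12.22, 12.22 and 11.98 with DFO and 13.81, 13.49, 13.59 and 13.36 with DMSO, a fall of 1.23 (SE 0.08, adjusted p = 0.0019). H1-2 fell by 2.24 (SE 0.11). The other 6 were not called, among them H1-3 at -0.37 (adjusted p = 0.068) and H1-10, a replication-independent form, at -0.14.

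Replication-independent histone variants and the factors that make and destroy histone messages stayed near 0. Of 8 measured variants 1 fell (12.5%, against 1.99% of all genes) and 0 rose. It was H2AX, the variant phosphorylated at DNA breaks, at -0.23, a call lost whichever pair was left out. H2AZ1 at -0.02, H2AZ2 at 0.00, H3-3B at -0.01 and MACROH2A1 at 0.02 were not called. Of 26 measured factors SLBP alone was called (3.85%, against 1.37% of all genes called higher). SLBP had 11.16, 10.22, 10.15 and 10.26 with DFO and 10.97, 10.02, 9.99 and 9.95 with DMSO, a rise of 0.22 (SE 0.04, adjusted p = 0.042) seen in each pair, a call lost whichever pair was left out. NPAT, the transcriptional coactivator of histone genes, stood at 0.16 (adjusted p = 0.15).

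**Figure D3:**
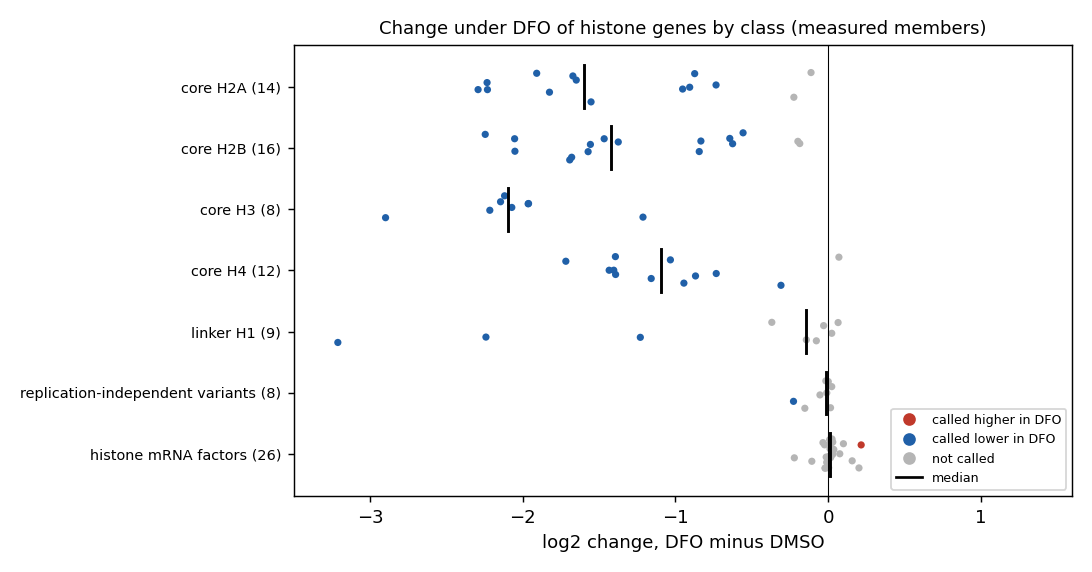
Log2 change (DFO minus DMSO, x axis) of each measured histone gene and histone mRNA factor, by class, with class sizes in brackets and medians as vertical bars. The 4 core classes lie left of 0 apart from H4C7 at 0.07, with medians from -2.10 (H3) to -1.10 (H4). The variants and mRNA factors lie around 0.

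The G1/S and the G2/M lists gave calls in opposite directions. Fewer cells in a phase and less RNA per cell cannot be told apart in bulk RNA. Of 28 measured G1/S regulators 7 rose (25%, against 1.37% of all genes) and 0 fell, with a median of 0.06. CCNE2, a cyclin that drives entry into S phase, had 11.71, 10.53, 10.55 and 10.68 with DFO and 10.64, 9.69, 9.56 and 9.63 with DMSO. Although DMSO 1 lay among the DFO values, each pair rose by 0.84 to 1.06, and the rise was 0.98 (SE 0.05, adjusted p = 5.10e-04). CCNE1 rose by 0.75 and the E2F family members E2F7 and E2F2 by 0.64 and 0.42. The D-type cyclin gene CCND1 stood at 0.04 and was not called. The number called was 4, 4, 3 and 3 without pairs 1 to 4, and E2F2 was not called without the first (adjusted p = 0.072).

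Genes of G2 and mitosis were another large group of falls, with 38 lower (65.5%, against 1.99% of all genes), 1 higher and 19 not called of 58 measured and a median of -0.33. PLK1, a kinase needed for spindle formation, had 12.15, 11.64, 11.53 and 10.81 with DFO, against 12.82, 12.19, 12.30 and 11.71 with DMSO. It fell by 0.72 (SE 0.06, 95% interval -0.87 to -0.57, adjusted p = 0.0038). KIF18A, a kinesin that controls chromosome alignment, had 9.66, 8.47, 8.32 and 8.24 with DFO and 10.37, 9.29, 9.35 and 9.19 with DMSO, a fall of 0.88 (SE 0.06, adjusted p = 0.0018). For both genes each DFO array lay below its paired DMSO array, though the groups overlapped.

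BORA, an activator of Aurora A, fell by 0.88, the centromere kinesin gene CENPE by 0.80 and AURKA, the gene of Aurora A, by 0.77. MYBL2, a regulator of mitotic gene transcription, was the member that rose, by 0.30, a call lost without pair 2, 3 or 4. The number of members called lower was 28, 32, 14 and 19 without pairs 1 to 4, and AURKA was not called without the third. GAS2L3, HYLS1 and DEPDC1, named by the size of their falls and not by a list, fell by 0.86, 0.83 and 0.73. Others named by size were OXGR1, a receptor for oxoglutarate, at -1.01, LINC02961 and NLRP11 at -0.79 and ARID5B at -0.75, all called lower.

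Replication and damage genes gave few calls. Of 48 DNA replication genes 1 rose (2.08%, against 1.37% of all genes) and 0 fell, and the list median was 0.07. It was CLSPN, which mediates checkpoint signalling at forks, at 0.18. Differences were positive for 39 of the 48 and negative for 9, from -0.20 to 0.22. By limma 22 of them had an unadjusted p under 0.05, against 3427 of all 18404 genes. Of 33 DNA damage and repair genes 1 rose (3.03%, against 1.37% of all genes), the nuclease gene EXO1 by 0.30. In that list 0 fell, and 10 had an unadjusted p under 0.05. CLSPN lost the call whichever pair was left out (adjusted p up to 0.15), and EXO1 without pair 1, 3 or 4 (adjusted p up to 0.083). Among 37 CDK inhibitors and p53 targets 3 rose (8.11%, against 1.37% of all genes) and 1 fell (2.7%, against 1.99%). By limma 15 of the 37 had an unadjusted p under 0.05. CDKN1A, the gene of p21, had 9.60, 9.15, 9.22 and 8.90 with DFO and 9.42, 8.69, 8.70 and 8.47 with DMSO, a rise of 0.39 (SE 0.06, adjusted p = 0.028) that was 0.18 in the first pair and 0.43 to 0.51 in the others. BTG1 and SERTAD1 rose by 0.86 and 0.46, and SESN3 fell by 0.45. All 4 calls were lost without pair 2, 3 or 4, with an adjusted p of up to 0.13 for CDKN1A.

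Wnt signalling is constitutively active in SW480 cells through truncation of APC. Of 36 measured Wnt targets 8 fell (22.2%, against 1.99% of all genes) and 3 rose (8.33%, against 1.37%), with a median of -0.06. BAMBI, a decoy receptor for TGF-beta ligands, had 10.91, 9.77, 9.82 and 9.22 with DFO, against 11.75, 10.90, 10.80 and 10.34 with DMSO. It fell by 1.02 (SE 0.06, adjusted p = 9.44e-04), by 0.83 to 1.13 in each pair. FGF20, PROX1, DKK1 and CDX2 fell by 0.80, 0.63, 0.52 and 0.49. These are a growth factor, a transcription factor, a secreted Wnt antagonist and an intestinal transcription factor. FGF20 was not called without pair 3, nor DKK1 and CDX2 without pair 2, 3 or 4.

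AXIN2, a negative feedback gene of the pathway, changed by -0.22 (adjusted p = 0.038), a call lost whichever pair was left out (adjusted p up to 0.14), and LGR5, a stem cell receptor gene, stood at -0.34 (adjusted p = 0.057). CEMIP, JUN and SOX9 were the 3 that rose, by 0.86, 0.42 and 0.22, and the SOX9 call was lost whichever pair was left out (adjusted p up to 0.15). MYC had 11.58, 10.42, 10.40 and 10.42 with DFO and 11.80, 10.90, 10.85 and 10.90 with DMSO, with overlap of the groups. It fell by 0.41 (SE 0.05, adjusted p = 0.017), by 0.22 in the first pair and 0.45 to 0.48 in the others, and its antagonist MXD1 rose by 0.38. The number of Wnt targets called lower was 7, 3, 2 and 3 without pairs 1 to 4, and MYC and MXD1 lost their calls without pair 2, 3 or 4.

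Ribosome biogenesis genes gave 9 falls (18.8%, against 1.99% of all genes) and 0 rises among 48, with a median of -0.07, led by RRS1, TAF1A, UTP15 and WDR3 at -0.31 to -0.30. Without pairs 1 to 4 the count was 4, 0, 0 and 0. Of 39 ribosomal protein genes 0 were called by limma, and 1 had an unadjusted p under 0.05. Of 38 ATF4 and amino acid response genes 3 rose (7.89%, against 1.37% of all genes) and 2 fell (5.26%, against 1.99%). SLC38A2, an amino acid transporter gene, was among the rises, at 0.39. DDIT3 fell by 0.33 and CTH by 0.22. Counts without pairs 1 to 4 were 2, 1, 1 and 1 higher and 0 lower. Of 38 mTOR and AMPK regulators 2 rose and 2 fell (5.26% each, against 1.37% and 1.99% of all genes). DDIT4 was called whichever pair was left out. RRAGD and PRKAB2, at 0.18 and -0.20, were called in none of those fits, and SESN3 was not called without pair 2, 3 or 4. CASP8, the initiator caspase of death receptors, fell by 0.40 (adjusted p = 0.0055). It was the 1 called among 30 apoptosis regulators (3.33%, against 1.99% of all genes called lower). By limma 0 members were called among 17 cytosolic heat shock proteins, 16 metallothioneins and zinc response genes and 8 genes of the aryl hydrocarbon receptor. Their median changes were -0.01, 0.04 and -0.03, and 1, 2 and 1 members had an unadjusted p under 0.05.

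Other lists gave 1 or 2 calls each, where 3.36% of all genes were called. INSIG2 was the 1 called of 29 genes of cholesterol and fatty acid synthesis, and was not called without pair 3 or 4. BNIP3L was the 1 called of 29 genes of mitophagy and autophagy, and was not called without pair 2, 3 or 4. GCH1, the first enzyme of tetrahydrobiopterin synthesis, rose by 0.37 as the 1 called of 31 NRF2 targets and ferroptosis genes, and was not called without pair 2 or 4. HERPUD1, of the degradation pathway of the endoplasmic reticulum, rose by 0.32 as the 1 called of 25 stress genes of that organelle. The cytokine gene LIF and the transcription factor gene IRF1 rose by 0.54 and 0.21 among 28 NF-kB genes, and TGIF1, a corepressor, fell by 0.30 among 37 genes of TGF-beta, BMP and Notch signalling. Among 20 clock genes BHLHE40 rose by 1.59 and BHLHE41 fell by 0.27. HERPUD1, IRF1, TGIF1 and BHLHE41 each lost the call whichever pair was left out, and LIF and BHLHE40 were called in all 4 of these fits.

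**Figure D4:**
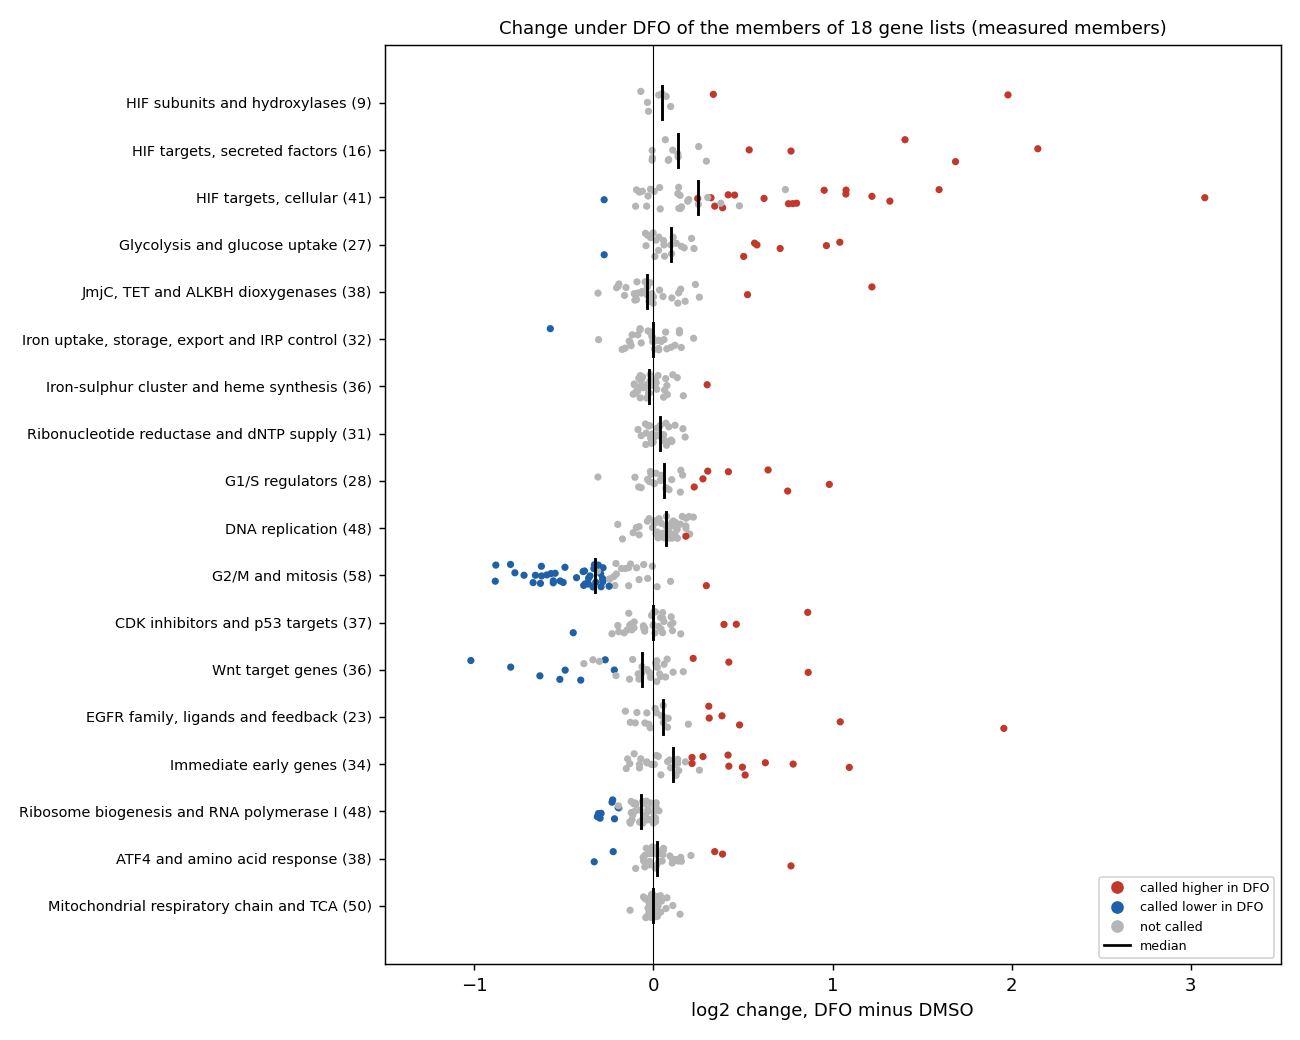
Log2 change (DFO minus DMSO, x axis) of each measured member of 18 gene lists, with list sizes in brackets. Red points were called higher with DFO, blue points lower and grey points not called, and vertical bars are list medians. The G2/M list lies left of 0 with a median of -0.33, and rises beyond 1 occur in the HIF, glycolysis, dioxygenase, EGF receptor and immediate early gene lists.

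Deferasirox was set beside DFO only to see where DFO differed. The labelled doses differ, so a difference cannot be told apart from one of dose. With the median level of the arrays as a block, 8 of 18404 genes (0.0435%) were called between DFO (n = 4) and Deferasirox (n = 3). CHKA, a choline kinase gene, NRP2, a receptor of semaphorins and VEGF, and DHRS3, a retinaldehyde reductase gene, were higher with DFO by 0.48, 0.73 and 0.60. SLFN5, PAX8-AS1, PER2, IVNS1ABP and PCDHB5 were lower with DFO, at -0.63, -0.35, -0.42, -0.48 and -0.43. The count was 2 without Deferasirox 2 and 0 without DFO 4, Deferasirox 1 or Deferasirox 3, where 1540, 1707 and 1634 genes had an unadjusted p under 0.05. Without the block limma called 0 genes, and 44 had an unadjusted p under 0.05.

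The genes that led the DFO response were not called between the chelators. DDIT4 differed by 0.05 (SE 0.12), ADM by -0.06 (SE 0.12), EGLN3 by 0.04 (SE 0.11) and VEGFA by -0.08 (SE 0.12), each as DFO minus Deferasirox. ARRDC3 differed by -0.24 (SE 0.06, adjusted p = 0.21), ERRFI1 by -0.25 (SE 0.11), CHST15 by -0.21 (SE 0.10) and IGFBP3 by -0.20 (SE 0.22). H1-5 differed by -0.16 (SE 0.22), H3C12 by -0.25 (SE 0.12), H2AC15 by -0.52 (SE 0.14, adjusted p = 0.22) and H2AC20 by -0.42 (SE 0.08, adjusted p = 0.14). H2BC14, H1-2, H2AC8 and H3C11 differed by -0.40, -0.23, -0.40 and -0.34. These values do not show that the chelators acted alike.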

How the data were processed

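Log2 signals, 1 per transcript cluster and array, are the deposited values; GCRMA and limma are named, per the submitters' processing notes, without version or role. They carry no detection calls, so no signal was set against background, and 0 columns were left unused. Of 32321 transcript clusters, 19158 had 1 gene symbol in the platform's probe table, 1388 several and 11775 none. For 637 genes with several clusters the one with the highest mean over 13 arrays was kept, which left 18404 genes.

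DFO and DMSO (n = 4 each) were compared with limma 3.58.1 (R 4.3.3, statmod 1.5.0), with the replicate number as a block, and a gene counted as called where its p, adjusted by Benjamini-Hochberg over the 18404 genes, was under 0.05. Intervals are 95% intervals of that fit. The labels state no pairing. The replicate numbers of the labels were taken as pairs, with earlier results of these data known. Deviations of same-numbered DFO and DMSO arrays from their group means correlated at 0.945, 0.662, 0.738 and 0.788 over genes. DFO 2 with DMSO 3 and DFO 3 with DMSO 2 correlated at 0.630 and 0.519, and the other unlike-numbered arrays at -0.704 to 0.0628. Pairing by number cannot be told apart from a shared array level. DFO and Deferasirox were compared over all 13 arrays with the level as a block (array medians over 0.05 from the next one start another level). The precision of every value is limited by the number of arrays, and the scripts were tested on simulated data.

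The members and the 45 gene lists (1157 distinct genes measured) were chosen with earlier results of these data known. Genes were named by rule: the 12 highest and 12 lowest called genes of one sign in all pairs, the 12 highest outside the HIF and glycolysis lists, the 15 lowest outside the histone lists, up to 4 called members per list and direction, all members of lists with at most 12 measured genes, and 29 fixed names (FTH1 and CA9 were not analysed here). Genes named only as called between DFO and Deferasirox were named after their values were seen. Promoters came from the RefSeq table of GRCh38.p14 (first listed start per gene). Alternatives were the block, the array level, median centring, quantile normalization, a filter on dim genes, the treatment of several clusters, the prior of limma and leaving out each pair.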

Additional observations from a re-analysis of the deposited data

Results flagged for a closer look

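For 29 genes the median-centred log2 signals were checked for 1 array far from the other 3 of its group. In 7 of 58 groups the gap to the nearest array, as a share of the group's range, passed Dixon's 95% critical value, and all 7 were arrays numbered 1, the pair with the high medians and the shared values. Chance gives about 1 in 20 groups.

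ARRDC3 in DFO 1 stood at 3.73 above its array median, against 4.12 to 4.17 in the other DFO arrays, a gap of 0.874 of the range. The gap was 0.859 for ERRFI1 in DFO 1 (3.89, against 4.39 to 4.47), 0.87 for CHST15 in DFO 1 (2.25, against 2.88 to 2.98) and 0.859 for FOSL2 in DFO 1 (3.404, against 3.87 to 3.94). In each of these DFO 1 was the lowest DFO array after centring. For TGFA the arrays numbered 1 were the highest of both groups, with a gap of 0.919 in DFO 1 (1.64, against 1.45 to 1.46) and of 0.867 in DMSO 1 (0.86, against 0.29 to 0.37). KIF18A in DMSO 1 was the highest DMSO array (2.35, against 1.90 to 1.95), a gap of 0.895. Without the first pair ARRDC3, ERRFI1, CHST15, FOSL2, TGFA and KIF18A were called in the same direction, by 2.41, 2.12, 1.87, 1.28, 1.13 and -0.94 on the log2 scale.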

How the results depend on the processing

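The number of genes called between DFO and DMSO, 619 with the replicate number as a block, was 31 with no replicate block over the 8 arrays and 45 over all 13. With the array level as the block in place of the replicate number it was 599 over 8 arrays and 847 over 13, and 532 and 559 of the 619 were called there. It was 613 with median centring, 588 with quantile normalization (271 higher and 317 lower), 607 with the mean of a gene's clusters, 1572 of 9202 genes when the dimmer genes were left out, 234 of 32321 when all transcript clusters were tested and 1653 with a trended, robust prior. Leaving out 1 pair gave 172 (without the third pair) to 453 (without the first). None of the 619 changed sign under any of these alternatives. That was largely fixed in advance. All 619 had one sign in all 4 pairs, so leaving out a pair could not reverse them. Several other fits alter the estimated spread and not the difference itself. Of the 108 called genes named by rule, 56 were called without any 1 pair and 22 with no replicate block.

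The count between DFO and Deferasirox, 8 with levels blocked, was 0 with no block and 0 to 10 when 1 array was left out. Signals of dim genes could not be set against background, and the ties of the first pair touch 30.1% of genes. That 0 called genes were tied was largely fixed in advance, because a tied gene has a difference of 0 in that pair. It does not show that the called genes are free of the problem. Their median absolute difference was 0.27 in the first pair, against 0.35, 0.36 and 0.41 in pairs 2 to 4.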

Other observations

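Some gene groups outside the lists were looked at after the values had been seen. Of 44 measured kinesin genes named KIF, the motors of spindle and transport, 10 fell (22.7%) and 0 rose, against 1.99% of all genes called lower, and several of them also belong to the G2/M list. Of 175 small nucleolar RNA genes, which guide modification of ribosomal RNA, 9 fell (5.14%) and 1 rose. Of 541 zinc finger genes 22 fell (4.07%) and 6 rose (1.11%), with a median change of -0.04. MicroRNA genes gave 2 rises and 2 falls among 173 (1.16% each), close to the 1.37% and 1.99% of all genes.

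Outside every list 430 called genes remained. Chosen after their values were seen, ITGA5, the alpha subunit of the fibronectin receptor, rose by 0.84, GDF15, a stress-induced cytokine gene, by 0.79, FLVCR2, a transporter gene of the heme exporter family, by 0.79 and SNAI2, a repressor of epithelial genes, by 0.51. SOX2, a stem cell transcription factor gene, fell by 0.60 (adjusted p = 0.0021), and MIR17HG, the host gene of a microRNA cluster, by 0.20.

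In a test of all 32321 transcript clusters, 37 without a symbol were called, 7 higher and 30 lower, and 15 with several symbols, 1 higher and 14 lower. Of those 14, 11 carried the symbols of histone genes.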
